A study of Homo sapiens with 6 samples.

Results

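AP-1 is a family of dimeric transcription factors built from Jun and Fos subunits, and immediate early genes are those that cells transcribe within minutes of a growth or stress signal. The genes described here are 10 such genes, JUN, JUNB, JUND, FOS, FOSB, FOSL1, ATF3, MAFF, EGR1 and IER3, chosen by symbol among the 16715 distinct genes of the table. All 10 were found and all 10 passed the filter on low values. The libraries were RNA-seq of HCT116, an epithelial line from a human colorectal carcinoma, with 3 from control cells and 3 from cells given 5 µM 5aza for 48 hours and then kept in fresh medium for another 48 hours. Cells of both groups were at passages 7 to 10, and the labels do not say what control cells received in place of 5aza. The sample codes carry DAC, a common short form of 5-aza-2'-deoxycytidine, whereas the titles have 5aza, and the treatment is called 5aza here. Nothing in the labels says that the libraries of a group came from separate cultures, so p-values measure only the spread between these libraries.

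Jun and Fos proteins are joined through a leucine zipper and bind a short palindromic site. Jun proteins can pair with each other, Fos proteins need a Jun partner, and ATF3 and the small Maf protein MAFF belong to related zipper families. In growing epithelial cells these genes are driven by Ras and MAP kinase signalling, by SRF at their promoters and by AP-1 itself. HCT116 cells have wild-type p53. Azanucleosides such as 5aza are incorporated in place of cytidine and inhibit DNA methyltransferases.

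After 5aza, 4 of the 10 genes rose, 0 fell and 6 did not pass the test. JUN and ATF3 rose most, by 1.78-fold and 1.74-fold in mean FPKM (fragments scaled to transcript length and library size), followed by MAFF (1.37-fold) and JUNB (1.14-fold). The test was limma on log2(FPKM + 0.1), and "rose" and "fell" are used where the p-value adjusted over all 12360 genes tested was under 0.05. Over all genes tested, 23.7% passed, of which the rises made up 10.6% and the falls 13.1% of genes tested. With the expression trend removed, the split was 1421 rises and 979 falls. Fewer genes were called whenever 1 library was left out, which also left fewer libraries to test. Against 1310 rises with all 6 libraries, there were 952, 944 and 1084 without control replicates 1, 2 and 3. Without 5aza replicates 1, 2 and 3 there were 772, 730 and 693. Falls numbered 1619 with all 6 libraries, and 1037, 940 and 1523 without control replicates 1, 2 and 3. Without 5aza replicates 1, 2 and 3 there were 1159, 1051 and 942 falls. The median log2 fold change of the 10 genes was 0.22, and that of all genes tested was -0.01. JUN, ATF3, MAFF and JUNB each passed under all 15 alternative settings, libraries left out included.

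Summed FPKM was 624311, 628399 and 601916 in control and 592051, 584739 and 577735 in 5aza libraries. Every 5aza library thus had a lower sum than every control library. Log2 values correlated across genes at 0.992 to 0.993 within groups and 0.976 to 0.977 between them. Of 12 colorectal epithelial markers, 11 had values, 7 of them at 1 FPKM or more in every control library and 8 in every 5aza library, and CDX1 was listed at 0 in all control libraries. Their summed level was 2483 to 2639 FPKM in control and 2979 to 3056 FPKM in 5aza libraries, carried mostly by KRT8 (means 984 and 1151 FPKM), KRT18 (520 and 622) and KRT19 (740 and 936). Of the 8 epithelial markers tested, 5 rose and 1 fell, against 10.6% and 13.1% of all genes tested, and 2 did not pass. KRT20 rose most, from a mean of 0.774 to 3.07 FPKM (log2 1.88, adjusted p = 4.08e-04, limma). CDH1 rose from 12.7 to 16.2 FPKM (log2 0.35, adjusted p = 0.00265, limma), and KRT8, KRT18 and KRT19 were the other rises. EPCAM was the fall (166 and 153 FPKM, log2 -0.12, adjusted p = 0.0213, limma), and it did not pass without control replicate 1 (adjusted p = 0.0693) or 2 (0.0556) or 5aza replicate 2 (0.0757) or 3 (0.0781), nor under quantile normalization (0.830) and 2 other settings. CLDN7, at 139 and 131 FPKM, lay wholly below in 5aza libraries and did not pass. Of 12 markers of leukocytes, endothelium and fibroblasts, 11 were under 1 FPKM in every library. Their sum was 5.05 to 5.49 FPKM in control and 7.87 to 8.46 FPKM in 5aza libraries, mostly COL1A1. COL1A1 was the 1 marker of these 12 that was tested, and it rose from a mean of 4.67 to 6.71 FPKM (log2 0.51, adjusted p = 0.00320, limma). The part of these shifts in the results below was not tested. In bulk RNA, a change in the number of cells of a type and one in RNA per cell cannot be told apart.

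The promoters of these genes were searched for binding motifs of AP-1, ATF and CREB proteins, SRF and EGR1, and the sequences with matches that the results turn on are given first. RefSeq promoter windows (GRCh38.p14, 250 bases before to 50 after each start) matched 8 of the 10 genes. The stretches below are printed 5′ to 3′ on the gene's strand, outside exons annotated by GENCODE, except for JUN and MAFF, where the site lies in an annotated exon and 30 bases around it are given. Capitals mark the motif matches.
JUN, chr1:58784096-58784125, minus strand: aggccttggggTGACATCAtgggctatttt
ATF3, chr1:212565157-212565333, plus strand: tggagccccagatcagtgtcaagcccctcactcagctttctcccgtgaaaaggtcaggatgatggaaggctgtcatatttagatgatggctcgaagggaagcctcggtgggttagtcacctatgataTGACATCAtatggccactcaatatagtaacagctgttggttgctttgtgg
MAFF, chr22:38201929-38201958, plus strand: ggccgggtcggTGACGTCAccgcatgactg
JUND, chr19:18281623-18281872, minus strand: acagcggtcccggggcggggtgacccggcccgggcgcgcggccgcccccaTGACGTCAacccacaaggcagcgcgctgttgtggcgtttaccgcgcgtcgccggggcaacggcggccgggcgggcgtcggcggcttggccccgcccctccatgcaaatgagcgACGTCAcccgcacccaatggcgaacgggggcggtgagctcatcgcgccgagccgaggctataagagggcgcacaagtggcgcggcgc
FOS, chr14:75278578-75278773, plus strand: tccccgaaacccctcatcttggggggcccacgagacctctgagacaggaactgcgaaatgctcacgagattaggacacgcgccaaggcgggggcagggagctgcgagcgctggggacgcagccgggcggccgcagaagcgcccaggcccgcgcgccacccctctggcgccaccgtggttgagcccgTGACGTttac
EGR1, chr5:138465229-138465478, plus strand: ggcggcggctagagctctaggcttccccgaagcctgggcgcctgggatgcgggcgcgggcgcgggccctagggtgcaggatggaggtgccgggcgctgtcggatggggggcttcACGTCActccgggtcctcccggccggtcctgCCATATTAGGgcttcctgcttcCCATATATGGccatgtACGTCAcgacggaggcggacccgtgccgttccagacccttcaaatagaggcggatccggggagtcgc

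The cyclic AMP response element TGACGTCA, bound by ATF and CREB proteins and by Jun-ATF dimers, was found in the windows of MAFF and JUND and in 1.85% of all 35116 windows. TGACATCA, a variant of this element, was found in JUN and ATF3, ending 60 and 116 bases before the start, and in 2.61% of windows. The shorter TGACGT, which overlaps every TGACGTCA, was in the windows of EGR1, FOS, FOSB, JUND and MAFF and in 7.98% of all windows. TGACATCA and TGACGT were chosen after the sequences were seen, and all motifs were searched on both strands. The classical AP-1 site TGAGTCA (4.95% of windows) and the EGR1 sites GCGTGGGCG or GCGGGGGCG (5.77%) were in none of the 8 genes' windows. The CArG box, the binding site of SRF, was found at 2 positions in EGR1 and in 1.29% of windows. Sites more than 250 bases before a start lay outside the search. So in these windows, of the 4 genes that rose, JUN and ATF3 carry TGACATCA, MAFF carries TGACGTCA and JUNB carries no motif searched. JUND, EGR1, FOS and FOSB, which hold TGACGT or TGACGTCA, did not pass the test. A match of letters is a description and not a bound site, and the ATF3 window may not hold the start that its transcripts used.

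CpG content of the windows differed widely among these genes. The observed over expected CpG ratio was 1.11 in JUND, higher than in 97.7% of all windows, 0.957 in FOS, 0.919 in EGR1, 0.770 in JUNB and 0.763 in FOSB. It was 0.619 in JUN and 0.239 and 0.0633 in the 2 windows of ATF3, against a median of 0.579 over all windows. MAFF also had 2 windows, at 0.884 and 0.718. In the matched windows, JUN and ATF3 had the lowest ratios of the 8 genes, but the ATF3 windows may not hold the start in use. Whether the ratio goes with the change in RNA was not tested. This describes 8 genes, with no test. The second ATF3 window, at 212614768 to 212615067, lies inside the gene. Which start the ATF3 transcripts used was not tested, so their promoter may lie outside both windows.

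The Jun family provides the obligate partner in AP-1. JUN (ENSG00000177606, chromosome 1, 58780788 to 58784327 in GENCODE release 29 on GRCh38), its founding member and a target of JNK kinases, was at 7.48, 7.13 and 7.35 FPKM in control replicates 1 to 3 and at 12.6, 12.8 and 13.8 FPKM in 5aza replicates 1 to 3. Every 5aza library lay above every control library, and the gap was wider than the spread in either group. The log2 change was 0.83 (SE 0.056, adjusted p = 1.18e-04, limma), larger than that of 97.0% of genes tested.

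JUNB (ENSG00000171223, chromosome 19, 12791496 to 12793315), which can restrain JUN as well as pair with Fos proteins, was at 61.7, 64.4 and 61.5 FPKM in control and 72.0, 70.8 and 71.0 FPKM in 5aza libraries. Its groups did not overlap either, with a rise of 0.19 on the log2 scale (SE 0.031, adjusted p = 0.00517, limma). JUNB shares 259 exonic bases with HOOK2 on the opposite strand (18.1 and 17.5 FPKM in control and 5aza), and the sources used here do not give whether counting used strand.

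JUND (ENSG00000130522, chromosome 19, 18279760 to 18281622), the constitutive Jun protein, was the most abundant subunit, at 151, 148 and 138 FPKM in control and 159, 153 and 142 FPKM in 5aza libraries. The groups overlapped, and the log2 difference of 0.05 had a 95% interval from -0.06 to 0.17 (adjusted p = 0.478, limma). JUND passed under quantile normalization, with a log2 fold change of 0.14 (adjusted p = 0.0455, limma; between 0.0455 and 0.840 over its alternatives).

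**Figure D1:**
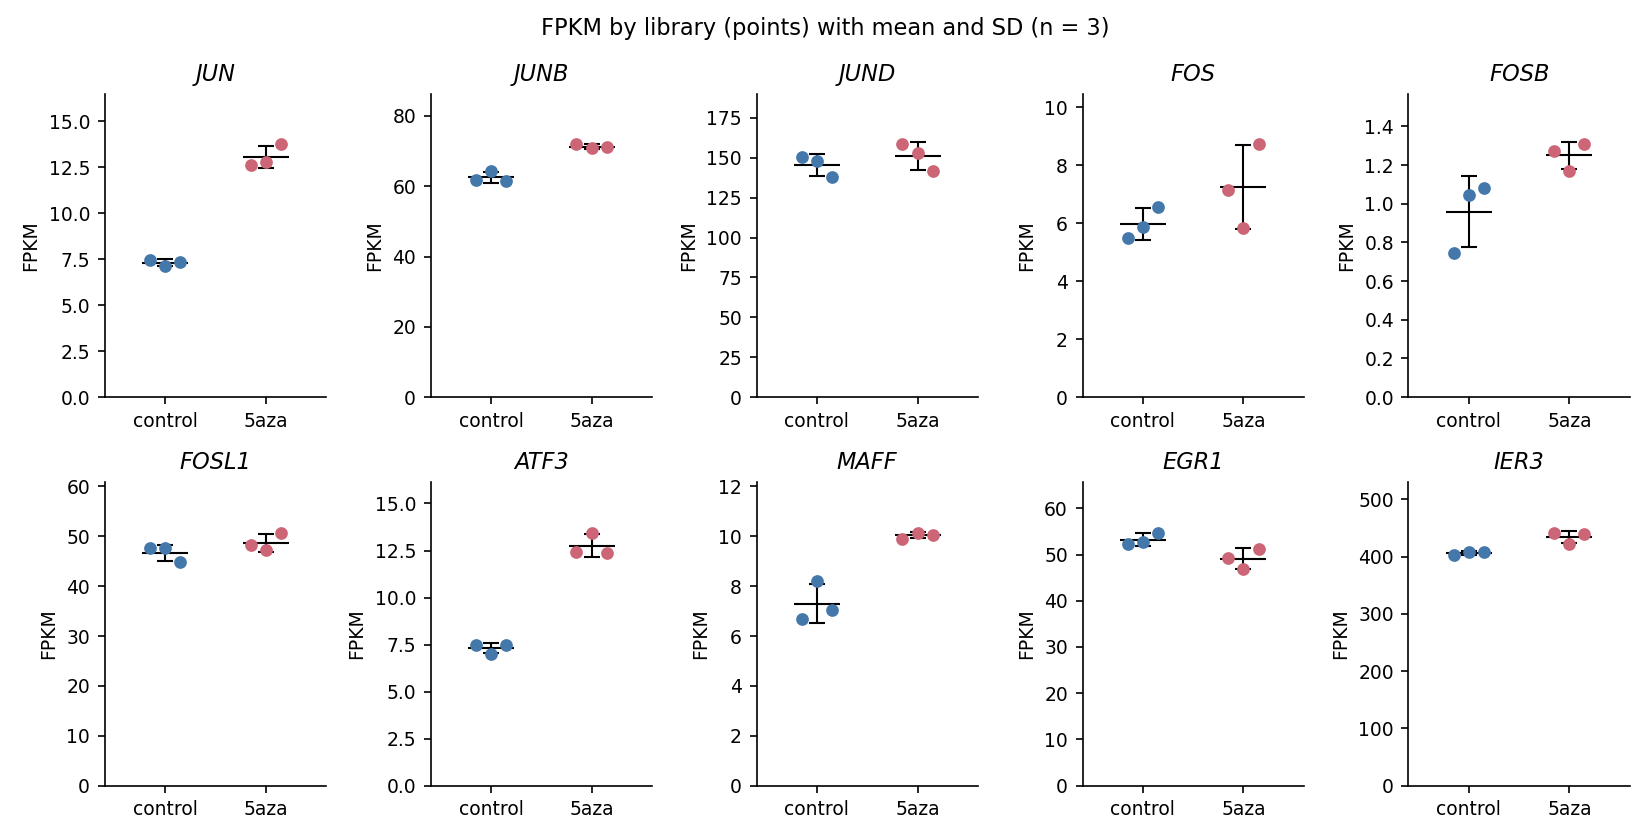
FPKM of the 10 genes in each library (vertical axes from 0, one panel per gene), with control in blue and 5aza in red, and horizontal bars and whiskers for the mean and SD of 3 libraries. JUN and ATF3 moved from about 7.32 FPKM in control to 13.1 and 12.8 FPKM in 5aza libraries, whereas the groups of JUND, FOS and FOSL1 overlapped.

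Fos proteins are partners of Jun proteins. FOS (ENSG00000170345, chromosome 14, 75278774 to 75282230), the classical serum-induced gene, was at 5.49, 5.87 and 6.56 FPKM in control and 7.17, 5.85 and 8.74 FPKM in 5aza libraries. It had the widest spread among 5aza libraries of the 10 genes, with a coefficient of variation of 19.9%, and 5aza replicate 2 lay within the control range. The log2 difference was 0.26, with a 95% interval from -0.07 to 0.59 (adjusted p = 0.223, limma), so a rise of up to that size was not distinguishable from none with these libraries. Single libraries moved the FOS value, to 0.12 without 5aza replicate 3 (adjusted p = 0.535) and 0.40 without 5aza replicate 2 (adjusted p = 0.0607), both by limma.

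FOSB (ENSG00000125740, chromosome 19, 45467995 to 45475179), a further inducible Fos protein, was the least abundant, at 0.748, 1.05 and 1.08 FPKM in control and 1.27, 1.17 and 1.31 FPKM in 5aza libraries. All 5aza values were above the control values, yet the difference of 0.36 on the log2 scale (SE 0.17) did not pass (adjusted p = 0.168, limma). It was 0.21 without control replicate 1, 0.20 with a pseudocount of 1, 0.22 after removal of the expression trend and 0.14 under quantile normalization. FOSB lies within ERCC1 on the opposite strand, a gene at 58.9 and 64.6 FPKM with which it shares 0 exonic bases, and without strand, fragments of the 2 genes cannot be told apart where they overlap.

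FOSL1 (ENSG00000175592, chromosome 11, 65892049 to 65900573), which encodes FRA1, a Fos protein kept high by MAP kinase signalling in carcinoma cells, was at 47.6, 47.6 and 44.9 FPKM in control and 48.2, 47.2 and 50.8 FPKM in 5aza libraries. Those ranges overlap, and the 95% interval of the log2 difference ran from -0.04 to 0.16 (adjusted p = 0.328, limma). The fourth Fos gene, FOSL2, which encodes FRA2, was not among the 10 but belongs to the list of other zipper genes. It was at 6.89, 6.89 and 6.91 FPKM in control and 9.77, 9.43 and 10.1 FPKM in 5aza libraries, a rise of 0.50 on the log2 scale (adjusted p = 9.60e-04, limma).

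ATF3 (ENSG00000162772, chromosome 1, 212565334 to 212620777), a stress-induced zipper protein that pairs with Jun proteins and is a known target of both p53 and ATF4, rose with JUN. It was at 7.49, 7.03 and 7.46 FPKM in control and 12.4, 13.5 and 12.4 FPKM in 5aza libraries. The groups were far apart, with a log2 change of 0.79 (SE 0.059, adjusted p = 1.74e-04, limma), above that of 96.9% of genes tested. ATF4 RNA fell from 335, 360 and 331 FPKM to 278, 268 and 270 FPKM (log2 change -0.33, adjusted p = 0.00134, limma). RNA does not measure the activity of ATF4 or p53, and the cause of the ATF3 rise was not tested.

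MAFF (ENSG00000185022, chromosome 22, 38200767 to 38216511), a small Maf protein that lacks a transactivation domain and pairs with Cap'n'collar factors, was at 6.67, 8.20 and 7.03 FPKM in control. It stood at 9.91, 10.1 and 10.1 FPKM in 5aza libraries, all above the highest control library. The rise was 0.46 on the log2 scale (SE 0.081, adjusted p = 0.00670, limma). Its paralogue MAFK was at 22.4, 22.9 and 24.4 FPKM in control and 22.2, 19.4 and 21.0 FPKM in 5aza libraries, with a log2 fold change of -0.16 that did not pass (adjusted p = 0.0996, limma). MAFF overlaps PLA2G6 on the opposite strand (5.37 and 3.80 FPKM), with 0 shared exonic bases.

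EGR1 (ENSG00000120738, chromosome 5, 138465490 to 138469315), a zinc finger protein induced through SRF, was the one gene of the 10 with a lower mean after 5aza. Its values were 52.2, 52.8 and 54.7 FPKM in control and 49.3, 46.8 and 51.3 FPKM in 5aza libraries. The groups did not overlap, but the log2 difference of -0.12 (95% interval -0.22 to -0.02) did not pass after adjustment (adjusted p = 0.0835, limma). The EGR1 difference was -0.064 under quantile normalization (adjusted p = 0.390) and -0.055 after removal of the expression trend (adjusted p = 0.404), both by limma.

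IER3 (ENSG00000137331, chromosome 6, 30743199 to 30744554), a survival-linked early response protein, was the most abundant of the 10, at 403, 409 and 409 FPKM in control and 442, 422 and 440 FPKM in 5aza libraries. All 5aza values were higher, and the difference of 0.09 on the log2 scale narrowly missed the threshold (adjusted p = 0.0540, limma). IER3 passed under quantile normalization (log2 0.18, adjusted p = 0.00583) and after removal of the expression trend (0.21, adjusted p = 0.00339), both by limma, with adjusted p-values from 0.00339 to 0.162 over its alternatives. An antisense gene, IER3-AS1, shares 359 exonic bases with it and was not analysed here.

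**Figure D2:**
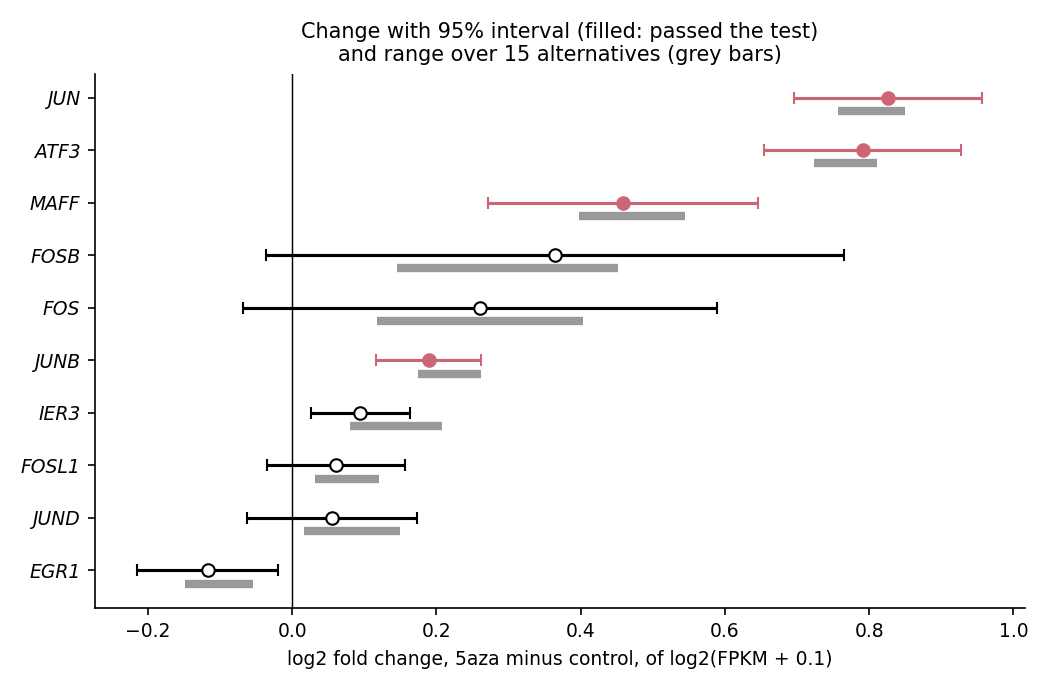
Log2 fold change of each gene, 5aza minus control, with its 95% interval (points and whiskers, filled red where the gene passed the test) and the range over 15 alternative settings (grey bars). JUN (0.83), ATF3 (0.79), MAFF (0.46) and JUNB (0.19) passed, and the intervals of FOS, FOSB, FOSL1 and JUND include 0.

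Without regard to the test, the 5aza libraries lay wholly above the control libraries in 6 of the 10 genes and wholly below in 1, where this holds for 19.6% and 22.6% of all genes tested (42.2% in either direction). By level in control libraries the order was IER3 (407 ± 3.64 FPKM, SD, n = 3), JUND (145 ± 6.71), JUNB (62.5 ± 1.61), EGR1 (53.2 ± 1.32), FOSL1 (46.7 ± 1.56), then ATF3, JUN and MAFF at 7.32, 7.32 and 7.30, FOS at 5.97 and FOSB at 0.959 FPKM. ATF3, JUN and MAFF could not be ordered within their spread in control libraries. In 5aza libraries JUN (13.1 ± 0.618) and ATF3 (12.8 ± 0.607) still overlapped, MAFF (10.0 ± 0.121) lay below both, and EGR1 (49.1 ± 2.27) and FOSL1 (48.7 ± 1.82) now overlapped.

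**Figure D3:**
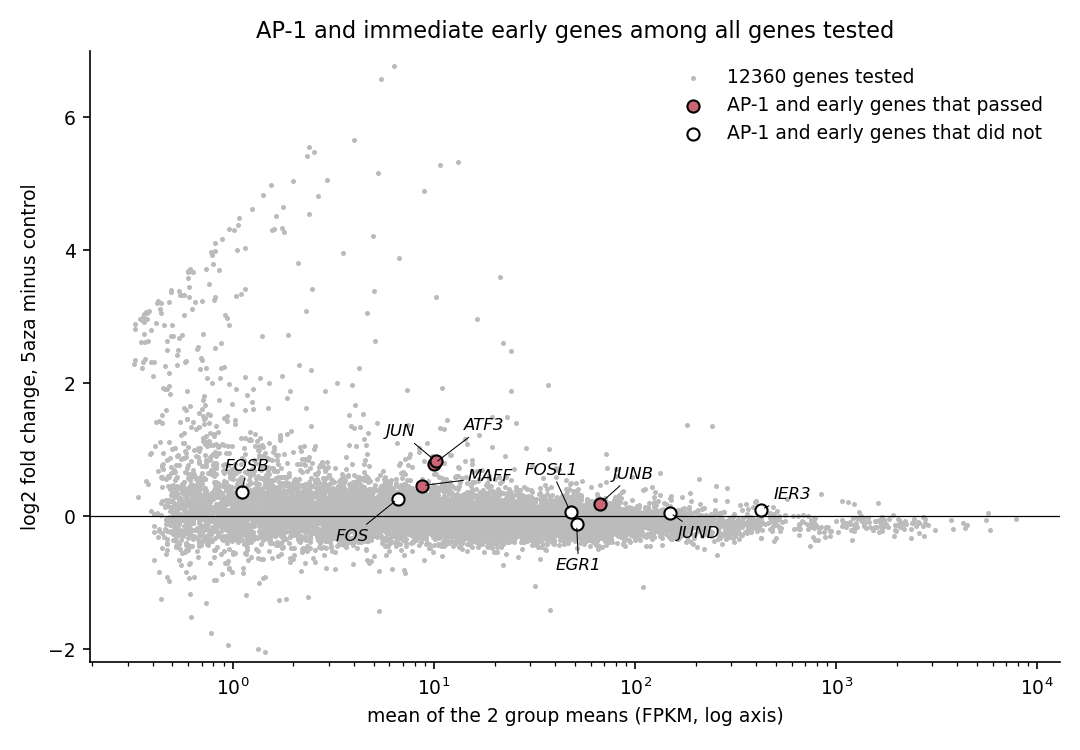
Log2 fold change against mean FPKM (log axis) of the 12360 genes tested (grey) and of the 10 genes (red where they passed, white where they did not). JUN, ATF3 and MAFF sit near 10 FPKM above most genes of that level, while JUND and IER3, at over 100 FPKM, sit near 0.

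Because FPKM is scaled to length, levels within a family can be summed and each subunit's share followed in every library. Summed Jun family RNA was 220, 219 and 207 FPKM in control and 243, 237 and 227 FPKM in 5aza libraries. JUN made up 3.40%, 3.25% and 3.55% of it in control and 5.19%, 5.40% and 6.08% in 5aza libraries. The share of JUND was 68.6%, 67.4% and 66.7% in control and 65.2%, 64.7% and 62.6% in 5aza libraries, so that JUND remained the main Jun transcript in all 6. For both shares the groups did not overlap (exact two-sided permutation test, p = 0.1, the smallest that 3 libraries against 3 allow). JUNB kept 29.1% ± 0.889 and 30.3% ± 0.934 (SD, n = 3) of the family, with overlapping groups (exact permutation p = 0.2).

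Summed Fos family RNA was 60.8, 61.4 and 59.5 FPKM in control and 66.4, 63.7 and 70.9 FPKM in 5aza libraries. FOSL1 made up 78.4%, 77.5% and 75.5% of it in control and 72.6%, 74.2% and 71.6% in 5aza libraries. FOSL2 went from 11.3%, 11.2% and 11.6% to 14.7%, 14.8% and 14.3%, and again neither pair of groups overlapped (exact permutation p = 0.1 for each). The share of FOS, 9.88% ± 1.04 and 10.8% ± 1.57 (SD, n = 3), overlapped between groups (exact permutation p = 0.6). FOSB was at 1.59% and 1.87%, a difference whose sign turned under quantile normalization (0.28 and -0.029 percentage points). The ratio of summed Jun to summed Fos RNA was 3.56 ± 0.0725 in control and 3.52 ± 0.287 in 5aza libraries (SD, n = 3; exact permutation p = 1). None of the 10 family measures could reach p under 0.05, and no adjusted value is given for that reason.

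**Figure D4:**
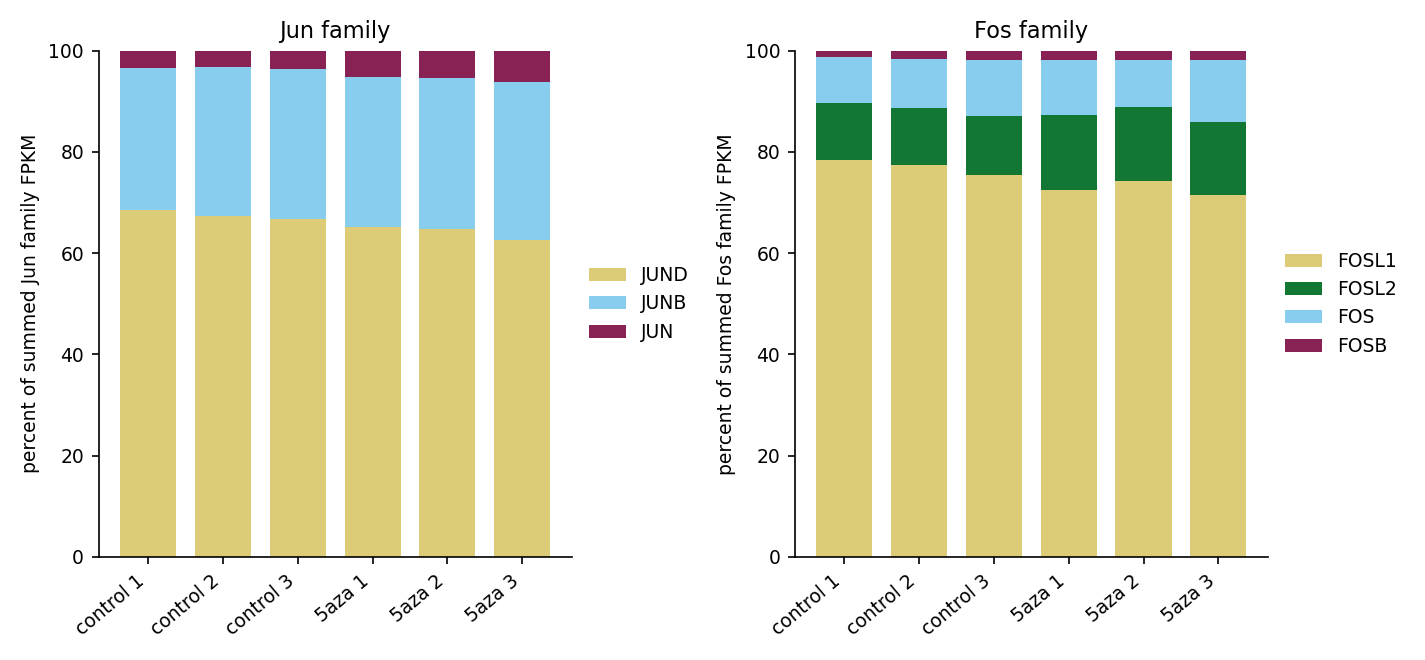
Share of each subunit in the summed FPKM of the Jun family (left) and the Fos family (right), in percent, stacked for each of the 6 libraries. JUN rises from 3.40% to 5.56% and FOSL2 from 11.4% to 14.6% in the means, while JUND and FOSL1 remain the largest parts.

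Other zipper proteins can exchange partners with Jun, ATF3 and MAFF. Of 26 further genes of the AP-1, ATF, CREB, Maf and Cap'n'collar families, 24 had values and 21 were tested. Among the latter 5 rose and 2 fell, against 10.6% and 13.1% of all genes tested. The other 14 did not pass, and the median log2 fold change of this list was 0.00. The largest rise was of CREB5, a CREB protein that pairs with JUN, from 0.187, 0.122 and 0.0713 FPKM to 0.962, 1.65 and 0.997 FPKM (log2 change 2.51, adjusted p = 0.00142, limma). CREB5 passed the filter on low values through its 5aza libraries alone, so that it had to differ, and it had no value in 4 of the 15 alternatives. The size of its change depends on the scale, with log2 changes of 0.95 and 3.19 with pseudocounts of 1 and 0.01 and 1.71 under quantile normalization. FOSL2 came next, and then BACH1, a repressor that pairs with small Maf proteins, at 9.24, 7.60 and 8.52 FPKM in control and 10.5, 10.6 and 11.2 FPKM in 5aza libraries. BACH1 no longer passed without 5aza replicate 3 (adjusted p = 0.0627, limma).

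The 2 zipper genes that fell were ATF4 and DDIT3, which encodes the stress factor CHOP. DDIT3 went from 8.35, 9.82 and 9.71 FPKM to 7.51, 7.77 and 7.94 FPKM (log2 change -0.26, adjusted p = 0.0431, limma). It no longer passed without control replicate 2 (adjusted p = 0.132) or 3 (0.111) or 5aza replicate 1 (0.113), 2 (0.0957) or 3 (0.0838), and with 2 other settings. Counts of rises in this list were 3 and 2 without 5aza replicates 1 and 3, and 1 fall was left without control replicate 2 or 3 or 5aza replicate 2 or 3.

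Of 40 other immediate early genes, all had values and 38 were tested. In this list 12 rose and 2 fell, against 10.6% and 13.1% of all genes tested, and 24 did not pass. Their median log2 fold change was 0.06. SGK1, a serum-induced kinase, went from 2.57, 2.37 and 2.98 FPKM to 5.41, 5.27 and 6.04 FPKM, a log2 change of 1.05 (adjusted p = 6.78e-04, limma). BTG2, an antiproliferative protein and p53 target, went from 16.5, 15.3 and 15.1 FPKM to 29.1, 28.0 and 31.2 FPKM. PLK2, a polo-like kinase that p53 also induces, went from 32.2, 31.1 and 31.7 FPKM to 52.8, 51.4 and 51.3 FPKM (log2 change 0.71, adjusted p = 1.39e-05, limma). These 3 genes had no overlap between groups, and their calls held in all 15 alternatives. IER5L fell from 130, 131 and 124 FPKM to 108, 109 and 101 FPKM (log2 change -0.27, adjusted p = 0.00350, limma).

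SRF was the other fall of this list, from 26.2, 25.2 and 26.6 FPKM to 23.0, 24.5 and 23.1 FPKM (log2 change -0.14, adjusted p = 0.0493, limma). Its call was lost in 10 of 15 alternatives. Among them were the fits without control replicate 1 (adjusted p = 0.126), 2 (0.0641) or 3 (0.120), without 5aza replicate 1 (0.134) or 3 (0.139), and with the replicate block (0.0828), all by limma. Without control replicate 3, 4 genes of the list fell, and without control replicate 1 or 2 or 5aza replicate 1 or 3, 1 did.

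Upstream of these genes lie the Ras, ERK, JNK and p38 kinases and the SRF cofactors. Of 32 such genes, 30 had values and 28 were tested. Here 2 rose and 2 fell, against 10.6% and 13.1% of all genes tested, and 24 did not pass. ELK3, an ETS partner of SRF, rose from 23.3, 23.5 and 25.4 FPKM to 30.4, 28.9 and 30.2 FPKM (log2 change 0.31, adjusted p = 0.00345, limma). MAP3K1, a kinase at the head of the JNK cascade, rose from 4.69, 5.18 and 5.07 FPKM to 6.05, 6.06 and 6.21 FPKM (log2 change 0.29, adjusted p = 0.0201, limma). MAP3K1 did not pass without control replicate 1 (adjusted p = 0.0619) or 5aza replicate 1 (0.0528), 2 (0.0516) or 3 (0.0666), which left 1 rise in this list. MAP2K7, which phosphorylates JNK, fell from 27.3, 25.6 and 25.9 FPKM to 22.8, 22.8 and 22.9 FPKM (log2 change -0.20, adjusted p = 0.0105, limma), and SRF is also on this list. MAP2K7 was the 1 fall left without control replicate 1 or 2 or 5aza replicate 1 or 3. RNA levels of kinases do not measure their activity.

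Of 35 genes known as AP-1 targets, 33 had values and 24 were tested. Of those tested 12 rose and 1 fell, against 10.6% and 13.1% of all genes tested, and 11 did not pass. The median log2 fold change of the tested targets was 0.36, against -0.01 over all genes tested. The list was chosen with earlier results of these data known, so this difference is only a description. S100A2, a calcium-binding protein that p53 also induces, went from 12.7, 11.6 and 9.66 FPKM to 18.2, 23.0 and 17.7 FPKM (log2 change 0.79, adjusted p = 0.00461, limma). It was higher in every 5aza library than in any control library.

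IL11, a cytokine of the interleukin-6 family, went from 0.803, 1.45 and 1.39 FPKM to 2.32, 2.12 and 1.92 FPKM (log2 change 0.79, adjusted p = 0.0356, limma). Its call was lost without 5aza replicate 1 (adjusted p = 0.104), 2 (0.0936) or 3 (0.0731), and in 5 other alternatives, the replicate block (0.0566) included. VEGFA, the angiogenic growth factor, fell from 16.2, 17.4 and 17.2 FPKM to 14.9, 15.01 and 14.3 FPKM (log2 change -0.20, adjusted p = 0.0220, limma). VEGFA did not pass without control replicate 2 (adjusted p = 0.0767) or 3 (0.0581) or 5aza replicate 1 (0.0533) or 3 (0.0732), which left 0 falls in the list.

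**Figure D5:**
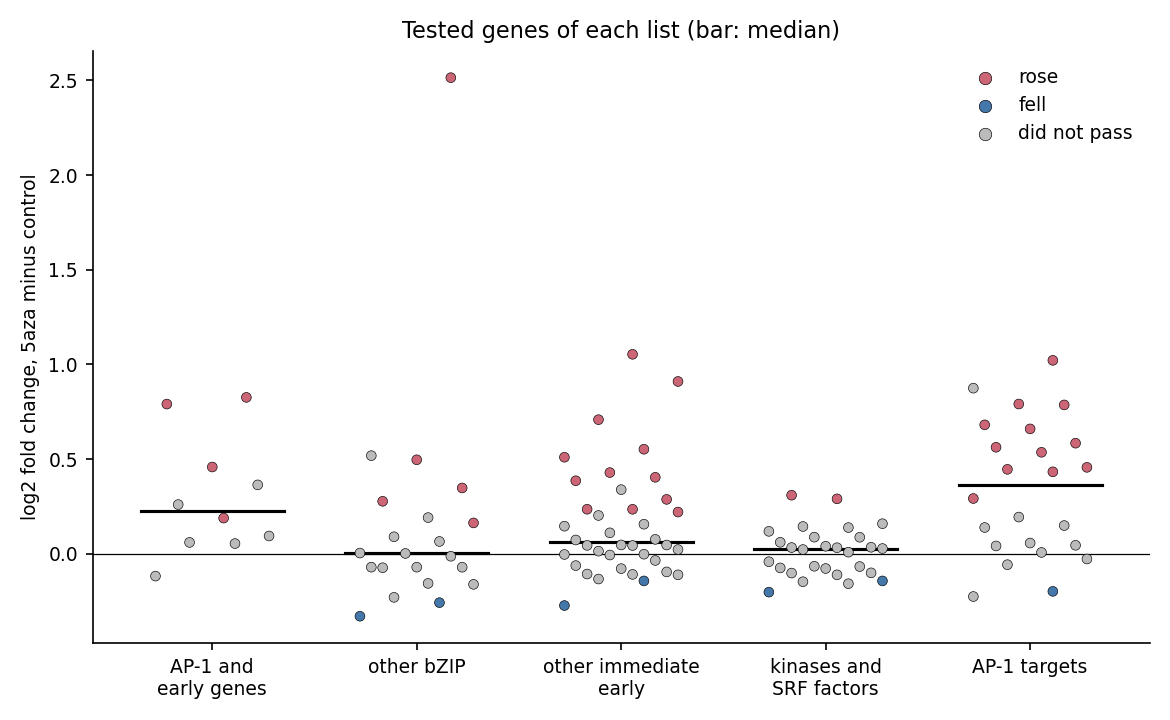
Log2 fold change, 5aza minus control, of the tested genes of each list (points, red where the gene rose, blue where it fell, grey where it did not pass) with the median of the list (bar). The medians are 0.22 for the 10 genes, 0.00 for other zipper genes, 0.06 for other immediate early genes, 0.03 for kinases and SRF factors and 0.36 for AP-1 targets. All lists were chosen with earlier results of these data known.

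For the 9 genes with a mean of at least 5 FPKM, the gene with the most similar log2 values over the 6 libraries was sought among 8709 annotated genes of at least 5 FPKM. The 6 points share their division into 2 groups, so the correlations are descriptions. ATF3 was most like SBNO1 (Pearson's r = 0.9997), JUN most like NAPG (0.998), JUNB most like DAP (0.998) and MAFF most like SLC41A1 (0.997). For ATF3 and JUN, 49 and 56 genes had an r above 0.99, so their patterns were shared by many genes. IER3 was most like SFXN3 (0.999) and EGR1 most like TMEM208 (0.997). FOS, FOSL1 and JUND, whose groups overlapped, were most like ZNF267 (0.988), MRTFA (0.985) and PEX3 (0.982), and no gene reached 0.99 with them.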

How the data were processed

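The authors deposited 1 table of FPKM per gene for all 6 libraries, with columns matched to samples through the sample descriptions. DESeq2 1.10.1, HTSeq 0.6.0 and STAR 2.5.1b appear in the submitters' processing notes without roles. The sources used here give neither the program behind the FPKM nor the strand setting or read totals. Low values of 1292 single-transcript genes lay within 0.1 of a whole read in at most 27.9% to 32.6% of cases, so reads were not recovered, no count test was run and depth gives no interval. For 11 identifiers in more than 1 row, only that of higher mean was used. A gene entered the test when 3 or more libraries reached 0.5 FPKM. The test was limma (version 3.58.1, R 4.3.3) on log2(FPKM + 0.1), with a variance trend, two-sided, Benjamini-Hochberg adjusted, and the fit was tested on simulated data. A fold change on this scale understates changes of low genes. Family shares were compared by exact permutation (scipy 1.17.1). The other lists are named by their 3 largest rises and 3 largest falls past the threshold, and likeness by the highest r; 1 gene that this rule names is not reported here. The 10 genes, lists and rules were chosen with earlier results of these data known. The planned comparison of protein sequences was not made.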

Additional observations from a re-analysis of the deposited data

How the results depend on the processing

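The 4 rises among the 10 genes were called under all 15 alternatives, and 0 of the 10 genes changed direction under any of them. Calls were gained under quantile normalization by JUND (0.14) and IER3 (0.18), and by IER3 with the expression trend removed (0.21). Over all genes, falls numbered 1041 without the variance trend and 979 after removal of the expression trend, and leaving out 1 library gave 693 to 1084 rises and 940 to 1523 falls. Leaving out 1 library gave 2 to 6 rises and 1 to 2 falls among other zipper genes, 1 to 4 falls among other immediate early genes, 1 to 2 rises and 1 to 2 falls among upstream genes, and 0 to 1 falls among targets. Zipper, early and upstream genes had 1 fall each without the filter on low values or without the variance trend. Under quantile normalization, upstream genes had 4 rises, and early and upstream genes 1 fall each, as they had after removal of the expression trend. Quantile normalization moved the difference in share to -0.029 for FOSB, -2.97 for FOSL1 and 2.66 percentage points for FOSL2, and that in summed Jun RNA to 32.7 FPKM. The cause of these changes was not tested. Of 251 values of the 17 genes that the naming rule takes from the other lists, 34 lost the call and 0 reversed. Same-numbered libraries deviated together only weakly (r 0.048 to 0.077, each highest with its own number), so the numbers were not taken as pairs. The replicate block gave 1259 rises and 1673 falls over all genes and changed no call of the 10 genes.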

Other observations

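Of the AP-1 target genes, 9 were under the filter on low values and were not tested. Among them MMP1, an interstitial collagenase and a classical AP-1 target, was at 0.0255 ± 0.0178 FPKM in control and 0.214 ± 0.139 FPKM in 5aza libraries (SD, n = 3). IL1A, an epithelial alarm cytokine, had means of 0.0206 and 0.325 FPKM, KRT17, a keratin of stressed epithelium, means of 0.0234 and 0.415 FPKM, MMP13 means of 0.102 and 0.440 FPKM and MMP9 means of 0.142 and 0.346 FPKM. In these 5 genes every 5aza library was above every control library, as in 26.1% of all 4355 genes under the filter, where 1.65% lay wholly below. Genes listed at 0 numbered 755 to 801 in 5aza and 1663 to 1761 in control libraries. MMP10, TNC, ITGB6 and IL6, also under the filter, overlapped between groups. The 5 genes were singled out after their values were seen.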
